A study of Mus musculus with 10 samples.

Results

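Fatty acid oxidation enzymes were compared between leukaemia cells and neighbouring myeloid cells of mouse bone marrow. The set was 10 genes listed by name for their place in the pathway, not by a measured value, and all 10 had an entry among the 10141 genes of the deposited table. Acsl1, Cpt1a and Cpt2 act in activation and entry, and Acadvl, Acadl, Acadm, Hadha, Hadhb, Etfa and Etfb act in the mitochondrial matrix steps. Leukaemia was started by tail-vein injection of MLL-AF9 cells that also expressed GFP into CD45.1 mice, and bone marrow was taken once GFP+ cells made up 2% of peripheral blood. The leukaemia group was 5 libraries of sorted GFP+ cells, and the myeloid group was 5 libraries of GFP-negative CD11b+ cells from marrow that also held leukaemia. The design text describes the myeloid cells as CD45.2-negative and magnetically sorted, while the protocol in the labels describes flow sorting of both populations. Marrow from mice without leukaemia, normal immature cells and the ages of the mice are not part of the comparison. Separate mice per library are not stated in the labels, so p-values measure the spread between libraries, which may be technical.

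Fatty acid oxidation breaks long-chain fatty acids into acetyl-CoA to feed the tricarboxylic acid cycle and the respiratory chain. A synthetase such as Acsl1 first attaches coenzyme A to the fatty acid, Cpt1a on the outer mitochondrial membrane exchanges it for carnitine, and Cpt2 on the inner membrane puts coenzyme A back. Inside the matrix a dehydrogenase matched to the chain length (Acadvl, Acadl or Acadm), then the trifunctional protein (Hadha and Hadhb), shorten the chain, and the electron transfer flavoprotein (Etfa and Etfb) carries electrons from the dehydrogenases towards the respiratory chain. Cpt1a is the step that malonyl-CoA, the building block of fatty acid synthesis, inhibits.

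The table held libraries of 24099545 to 32247826 recovered reads each. The deposited genes had already been selected for a difference: no gene had an unadjusted p above 0.243. Of 8079 genes tested, 99.8% passed the adjusted threshold, so passing it set no gene apart from the others in the table. Normalised reads (reads divided by the authors' size factor) summed over the table to 1.56 times as much in myeloid as in leukaemia libraries. Scaling recovered reads to the table total in place of the size factors raised the median log2 fold of all genes by 0.64. Directions are given under this scaling and after quantile normalization where they turn. Log2 folds under this scaling come from recovered reads, while other log2 differences come from deposited values, which understate the change of low genes. A difference set beside such a fold thus mixes the scaling with the kind of value. Markers followed the labels. The 6 genes of the MLL-AF9 programme list with an entry, of 7 in the list, summed to between 30780 and 36600 normalised reads in leukaemia and between 2076 and 2809 in myeloid libraries. The 10 neutrophil markers summed to between 67020 and 71870 in leukaemia and between 2810000 and 4462000 in myeloid libraries. This was the largest sum of any cell type list in the myeloid libraries and also in the leukaemia libraries. Myeloid replicates 2 and 4 had the highest neutrophil sums and the lowest dendritic cell sums (7 of 7 genes with an entry). Dendritic sums were 5715 and 5807, against 39205 to 60788 in the other myeloid libraries. Their monocyte sums (53139 and 58935, against 89428 to 99602) and B cell sums (460 and 435, against 857 to 1904) were also lowest. So were their macrophage and erythroid sums. In bulk samples, fewer cells of a type and less RNA per cell cannot be told apart.

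The upstream sequences of the genes with the largest differences, and of the subunit pairs, are shown because members of a pair changed together while the entry genes changed the other way. Each is the 250 bases before a RefSeq start on GRCm38.p6, 5′ to 3′ along the gene. The authors' genome build is not given in the sources used here, and the sequences describe the reference alone. Capitals mark CCAAT or its complement ATTGG, and AGGTCA, a core element bound by nuclear receptors, or its complement TGACCT. Acsl1 has 2 annotated starts (chr8:46470787-46471036, plus strand, and chr8:46490716-46490965, plus strand), Cpt1a lies at chr19:3323051-3323300, plus strand, Etfa at chr9:55512244-55512493, minus strand, and Etfb at chr7:43443822-43444071, plus strand. Hadha and Hadhb are divergent neighbours on opposite strands with 272 bases between their starts, so the sequence before Hadhb (chr5:30155003-30155252, plus strand) lies between the starts of both genes.
Acsl1 first start: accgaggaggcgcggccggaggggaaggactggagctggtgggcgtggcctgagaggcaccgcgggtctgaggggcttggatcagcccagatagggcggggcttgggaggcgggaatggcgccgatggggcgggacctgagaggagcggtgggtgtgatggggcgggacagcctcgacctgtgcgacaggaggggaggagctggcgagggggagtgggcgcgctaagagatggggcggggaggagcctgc
Acsl1 second start: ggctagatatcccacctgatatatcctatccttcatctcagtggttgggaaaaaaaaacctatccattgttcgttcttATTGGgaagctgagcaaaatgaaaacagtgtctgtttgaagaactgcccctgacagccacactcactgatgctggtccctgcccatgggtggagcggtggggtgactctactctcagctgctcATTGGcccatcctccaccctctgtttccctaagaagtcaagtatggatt
Cpt1a: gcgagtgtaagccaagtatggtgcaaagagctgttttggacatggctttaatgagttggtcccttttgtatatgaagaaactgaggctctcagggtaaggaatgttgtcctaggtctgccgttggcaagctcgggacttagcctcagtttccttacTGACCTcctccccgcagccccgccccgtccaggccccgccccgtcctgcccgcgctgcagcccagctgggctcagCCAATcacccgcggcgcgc
Etfa: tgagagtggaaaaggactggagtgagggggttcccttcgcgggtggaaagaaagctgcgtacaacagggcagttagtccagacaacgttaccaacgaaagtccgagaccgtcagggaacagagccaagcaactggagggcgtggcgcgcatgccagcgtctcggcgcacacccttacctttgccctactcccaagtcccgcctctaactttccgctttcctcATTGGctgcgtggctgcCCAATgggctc
Etfb: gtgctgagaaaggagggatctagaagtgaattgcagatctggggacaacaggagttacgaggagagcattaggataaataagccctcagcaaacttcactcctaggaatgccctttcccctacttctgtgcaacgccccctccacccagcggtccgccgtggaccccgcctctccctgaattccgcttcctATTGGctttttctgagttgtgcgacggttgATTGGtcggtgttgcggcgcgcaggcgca
Hadhb and Hadha: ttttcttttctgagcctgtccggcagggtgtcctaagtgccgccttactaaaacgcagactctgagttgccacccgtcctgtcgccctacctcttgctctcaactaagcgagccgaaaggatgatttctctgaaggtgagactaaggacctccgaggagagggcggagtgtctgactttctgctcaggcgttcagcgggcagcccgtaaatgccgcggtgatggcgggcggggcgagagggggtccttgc

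All 10 genes matched the RefSeq table, with 11 windows of 250 bases. Both strands were searched for 5 motifs. CCAAT stood in 4 of the 11 windows against 33.8% of 32851 windows of all genes, and these 4 belonged to Etfa (2 matches), Etfb (2), the second start of Acsl1 (2) and Cpt1a (1), that is, to genes higher and genes lower in leukaemia. AGGTCA stood in the windows of Acadm, Acadvl and Cpt1a (14.0% of all windows), and a direct repeat of AGGTCA with 1 base between the copies, which overlaps the single element by construction, in none (0.0335%). GGGCGG, the GC box, stood in 6 of the 11 windows (32.7% of all windows): those of Acadl, Acsl1 (first start), Cpt1a, Cpt2, Hadha and Hadhb. The windows of Hadha and Hadhb cover largely the same bases on opposite strands, so their matches are not separate. CACGTG stood in none (6.02%). The 2 starts of Acsl1 differed in base composition, with 72.0% and 48.4% G or C. A match is a description of the letters, and the files do not say which start was used.

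Members of the pathway went in different directions, which followed the division into entry and matrix steps only in part. The 3 activation and entry genes were lower in leukaemia, and of the 7 matrix genes the 4 of the trifunctional protein and the electron transfer flavoprotein were higher while the 3 dehydrogenase genes were lower. By limma's moderated test all 10 passed (99.8% of all genes tested did), 4 higher (49.1% of all genes) and 6 lower (50.7%). Groups did not overlap for 7 of the 10, against 86.8% of all genes tested, and 3 of the 10 differed by at least 1 log2 unit, against 27.7%. These shares were near or below the background. Scaled to the table total, 7 of the 10 passed as higher and 2 as lower, where 57.2% and 27.6% of all genes did. After quantile normalization 4 passed as higher and 4 as lower, where 47.0% and 41.0% of all genes did. The median log2 difference was -1.04 over the entry genes and 0.16 over the matrix genes, beside -0.16 over all genes tested.

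Acsl1, which activates long-chain fatty acids, was 2.57-fold lower in leukaemia. Its normalised reads were 3949, 3727, 3843, 4322 and 4030 in leukaemia replicates 1 to 5, and 9024, 11026, 8762, 12855 and 9308 in the myeloid replicates. Every leukaemia library lay below every myeloid library, and the leukaemia libraries were close together while myeloid replicates 2 and 4 stood above the other myeloid libraries. The means were 3974 ± 225 and 10190 ± 1730 (SD, n = 5 each), with a limma log2 difference of -1.23 (SE 0.0957, adjusted p = 4.8e-08). The 2 myeloid libraries with the most Acsl1 were also those with the highest sum over the 10 neutrophil markers (4461800 and 3730500, against 2809800 to 3068100 in the other myeloid libraries). Without these 2 libraries the log2 difference was -1.08. The part of neutrophil content in the difference between the groups was not tested.

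Cpt1a, the carnitine acyltransferase that controls entry, was 2.33-fold lower in leukaemia. Its normalised reads were 2805, 2014, 1586, 1825 and 1598 in leukaemia and 6221, 4200, 4054, 4039 and 4337 in the myeloid replicates. The groups did not overlap, and replicate 1 was the highest library of each group. The means were 1965 ± 501 and 4570 ± 931 (SD, n = 5 each), with a limma log2 difference of -1.04 (SE 0.136, adjusted p = 8.18e-06). Without leukaemia replicate 1 the log2 difference was -1.15 and without myeloid replicate 1 it was -0.93. Cpt1a varied more between leukaemia libraries than any other of the 10 genes, with a coefficient of variation of 25.5% against 3.47% to 15.6%.

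Cpt2, the inner membrane partner of Cpt1a, was 1.54-fold lower. Leukaemia libraries held 530, 580, 550, 594 and 614 normalised reads and myeloid libraries 847, 888, 889, 954 and 827. The groups did not overlap, and the gene had the lowest reads per kilobase of the set in each group. Its limma log2 difference was -0.38 (SE 0.0479, adjusted p = 5.55e-06). This direction held after quantile normalization (-0.46) but not when scaled to the table total, where the log2 fold was 0.02 (adjusted p = 0.84). Acsl1 (-0.71) and Cpt1a (-0.59) were still lower under that scaling. The ratio of Cpt1a to Cpt2 reads within a library, in which library size cancels, was 3.46 ± 1.07 in leukaemia and 5.22 ± 1.24 in the myeloid group (SD, 5 libraries each). The groups overlapped through leukaemia replicate 1 (5.295), while the other 4 leukaemia libraries (2.60 to 3.47) lay below every myeloid library (4.24 to 7.35). At every replicate number the leukaemia ratio was the lower one (5.295 against 7.35 in replicate 1). Whether same-numbered libraries are pairs is not stated.

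**Figure D1:**
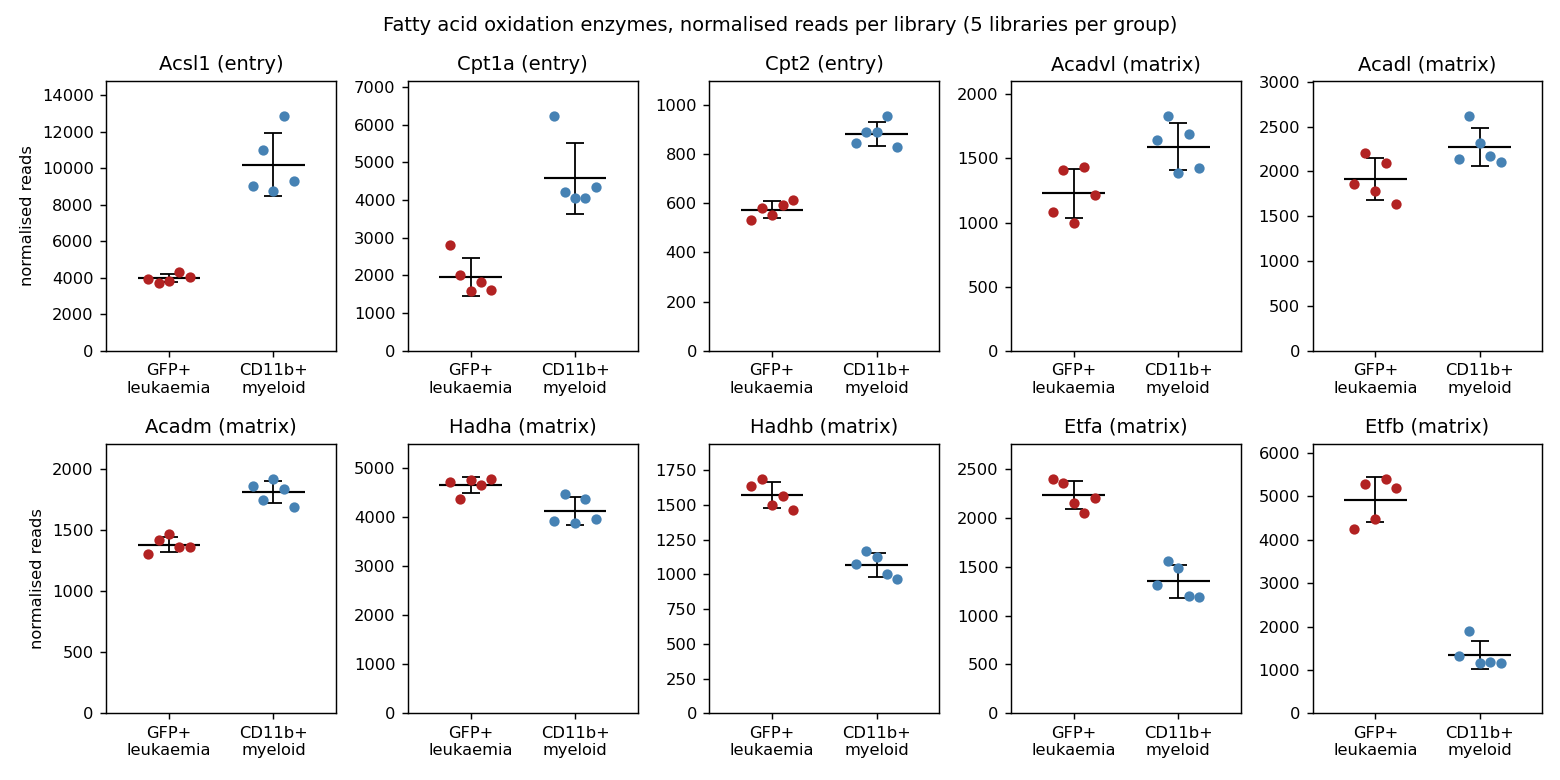
Normalised reads of the 10 enzyme genes (vertical axes, linear from 0) in each of 5 leukaemia (red) and 5 myeloid (blue) libraries, with replicates 1 to 5 from left to right, a line at the mean and bars of 1 SD. Acsl1, Cpt1a and Cpt2 are lower in every leukaemia library, Etfb is higher in every leukaemia library, and the groups of Acadvl, Acadl and Hadha overlap.

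The 3 chain-length dehydrogenases had small differences that depended on the scaling. Acadm, for medium chains, ranged from 1304 to 1467 normalised reads in leukaemia and from 1692 to 1921 in myeloid libraries without overlap, a 1.31-fold lower mean (log2 difference -0.30, limma adjusted p = 7.37e-05). Acadvl, for very long chains, ranged from 999 to 1432 and from 1385 to 1830, so the groups overlapped (1.30-fold lower, log2 difference -0.28, limma adjusted p = 0.00637). Acadl, for long chains, ranged from 1640 to 2207 and from 2110 to 2616, also with overlap (1.19-fold lower, log2 difference -0.20, limma adjusted p = 0.0207). The Acadl call was lost without leukaemia replicate 3 (limma adjusted p = 0.0507), leukaemia replicate 5 (0.0609) or myeloid replicate 2 (0.052), and without myeloid replicates 2 and 4 together (0.0641). Counting each annotated gene as a test also lost the call (limma adjusted p = 0.142). Over its alternatives the limma adjusted p ranged from 0.000865 (scaled to the table total) to 0.52 (quantile normalization), both with log2 differences above 0. Scaled to the table total, all 3 genes passed as higher, with log2 folds of 0.25 for Acadvl, 0.39 for Acadl and 0.25 for Acadm, all below the median of 0.43 for all genes. After quantile normalization Acadm (-0.15) passed as lower, while Acadvl (-0.18) and Acadl (0.05) did not pass.

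Hadha and Hadhb encode the alpha and beta subunits of the trifunctional protein, which carries out the hydratase, hydroxyacyl-CoA dehydrogenase and thiolase reactions on long chains. Both were higher in leukaemia. Hadhb had 1638, 1686, 1496, 1563 and 1464 normalised reads in leukaemia and 1073, 1168, 1125, 1005 and 965 in myeloid libraries, and no leukaemia library fell to the myeloid range. Its mean was 1.47-fold higher (log2 difference 0.40, SE 0.0546, limma adjusted p = 1.1e-05). Hadha ranged from 4377 to 4776 in leukaemia and from 3872 to 4469 in myeloid libraries, with overlap through leukaemia replicate 2 and myeloid replicate 2 (1.13-fold higher, log2 difference 0.16, limma adjusted p = 0.0174). Its log2 difference was larger after quantile normalization (0.66) and when scaled to the table total (0.82), and its adjusted p was 0.12 when each of 55450 annotated genes was counted as a test. The Hadhb to Hadha ratio of normalised reads was 0.338 ± 0.0311 in leukaemia and 0.260 ± 0.024 in the myeloid group (SD, 5 libraries each). Libraries of the 2 groups did not overlap in this ratio. Hadhb differed more than Hadha with the authors' size factors (0.40 against 0.16) and when scaled to the table total (1.198 against 0.815). After quantile normalization alone of these 3 scalings Hadha differed more (0.66 against 0.50 for Hadhb).

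Etfa and Etfb encode the subunits of the electron transfer flavoprotein, and both were higher in leukaemia. Etfb had 4255, 5298, 4479, 5405 and 5192 normalised reads in leukaemia and 1313, 1910, 1165, 1182 and 1155 in myeloid libraries. The lowest leukaemia library was above the highest myeloid library, replicate 2, which stood apart from the other 4. The mean was 3.66-fold higher (4926 ± 522 against 1345 ± 322, SD, n = 5 each), with a limma log2 difference of 1.56 (SE 0.106, adjusted p = 1.29e-08). This was the largest difference in size among the 10 genes, and without myeloid replicate 2 it was 1.66. Etfa had 2395, 2353, 2147, 2051 and 2196 normalised reads in leukaemia and 1309, 1554, 1485, 1201 and 1189 in myeloid libraries, again without overlap. Its mean was 1.65-fold higher (log2 difference 0.56, SE 0.0676, limma adjusted p = 3.49e-06). The subunits form a dimer of one copy each, but their transcripts did not change in equal measure. The Etfb to Etfa ratio of normalised reads was 1.78, 2.25, 2.09, 2.63 and 2.36 in leukaemia and 1.003, 1.23, 0.785, 0.984 and 0.972 in myeloid libraries, a ratio 2.24 times as high in leukaemia, and the groups did not overlap.

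**Figure D2:**
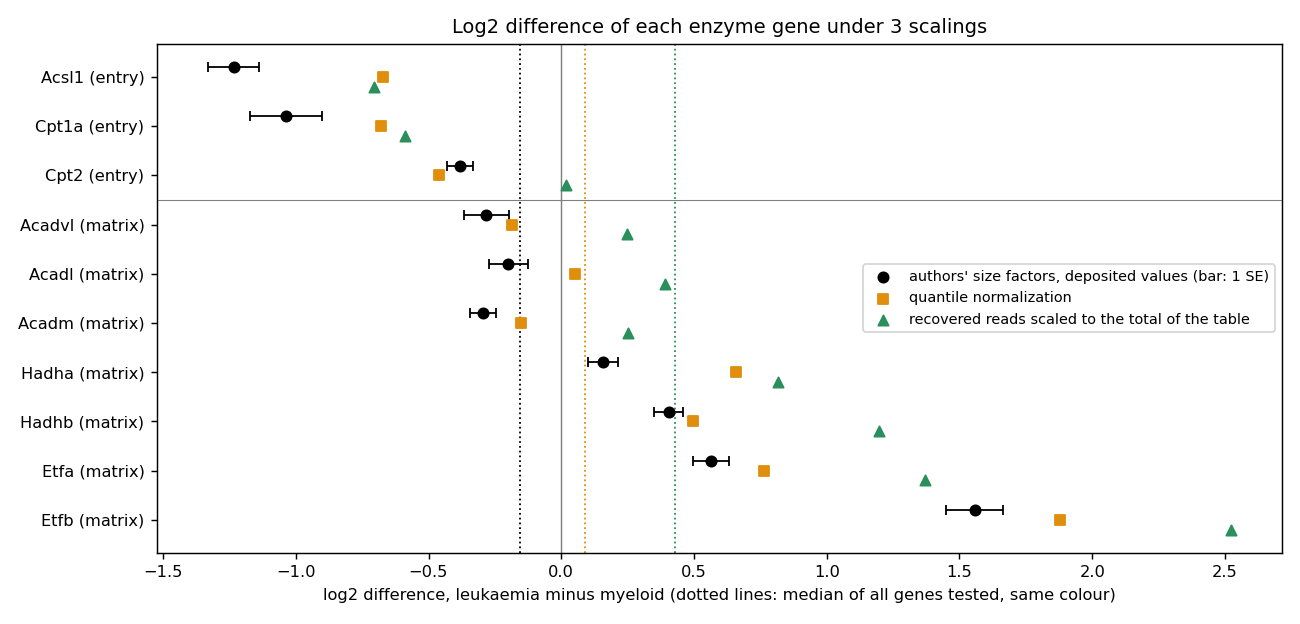
Log2 differences (horizontal axis, leukaemia minus myeloid) of the 10 genes under 3 scalings. Black circles (bars of 1 SE) are deposited values with the authors' size factors, and orange squares are deposited values after quantile normalization. Green triangles are recovered reads scaled to the table total, so they differ from the circles in scaling and in the kind of value. Dotted lines are the medians of all genes tested. Acsl1 and Cpt1a lie below 0 and the 4 genes from Hadha to Etfb above 0 under all 3, while Cpt2 and the dehydrogenases lie on different sides of 0.

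The balance between the steps was taken within each library as the mean deposited value of the 3 entry genes minus that of the 7 matrix genes, so that a factor common to a library's log values cancels. Its absolute size also depends on transcript length, and only its change between groups is read here. It was -0.13, -0.37, -0.33, -0.31 and -0.31 log2 units in leukaemia and 0.95, 0.73, 0.77, 0.98 and 0.89 in myeloid libraries. The means were -0.29 ± 0.0918 and 0.86 ± 0.111 (SD, n = 5 each), a difference of -1.16. No library of one group reached the other. The mean log2 difference was -0.88 over the entry genes and 0.27 over the 7 matrix genes. Among the matrix genes Etfb alone had 1.56, and 3 of the 7 were lower, so the matrix side leaned on Etfb. This balance is a description over chosen genes and carries no test. On the scale of recovered reads the difference was -1.40.

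**Figure D3:**
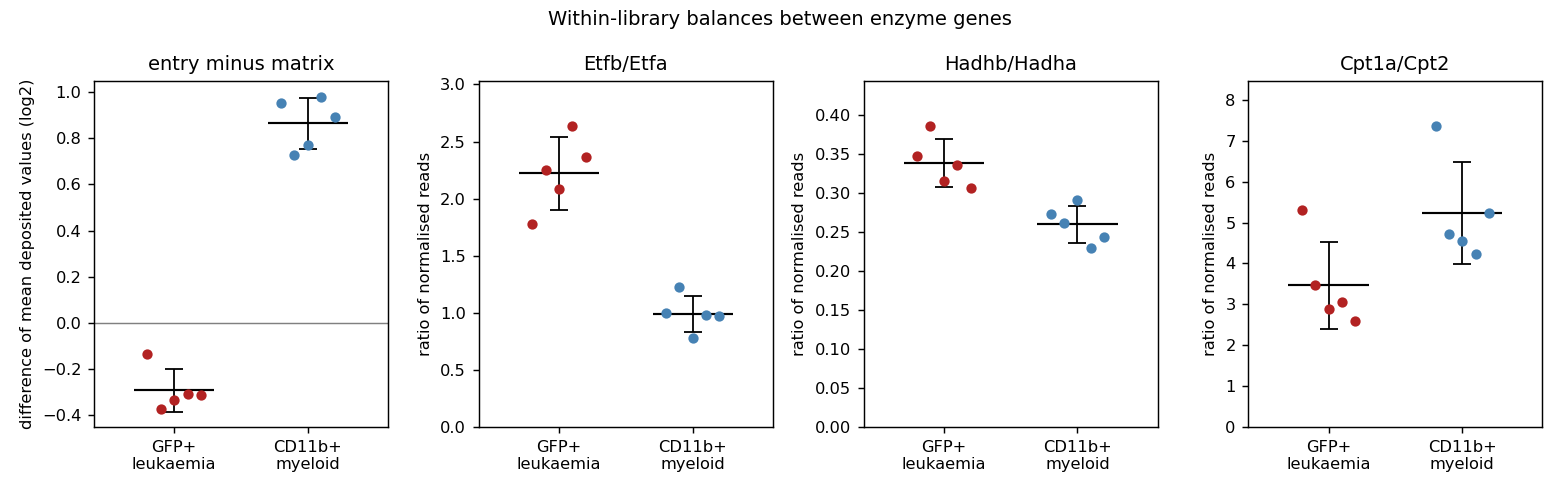
Within-library balances (vertical axes) in 5 leukaemia (red) and 5 myeloid (blue) libraries, with the mean as a line and 1 SD as bars: the mean of the entry genes minus that of the matrix genes in log2 units, and 3 ratios of normalised reads on linear axes from 0. The groups are apart in the entry balance, in Etfb to Etfa and in Hadhb to Hadha, and overlap in Cpt1a to Cpt2.

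Levels of different genes were compared as normalised reads per kilobase of the longest principal transcript in the GENCODE M21 annotation. In leukaemia Etfb was highest at 5516 ± 584, followed by Etfa (1601 ± 103), Hadha (1158 ± 40.2), Acsl1 (1020 ± 57.8), Acadl (999.8 ± 121), Hadhb (766 ± 45.6), Acadm (675.5 ± 30.2), Acadvl (566 ± 88.5), Cpt1a (455 ± 116) and Cpt2 (242 ± 14.3) (SD, n = 5). Neighbours whose means ± SD overlapped in this order were Acsl1 with Acadl, Acadm with Acadvl, and Acadvl with Cpt1a. In myeloid cells Acsl1 was highest at 2616 ± 444, followed by Etfb (1506 ± 361), Acadl (1185 ± 109), Cpt1a (1059 ± 216), Hadha (1026 ± 69.1), Etfa (968 ± 119), Acadm (885 ± 45.0), Acadvl (735 ± 86.3), Hadhb (521 ± 40.7) and Cpt2 (371 ± 20.5). From Etfb to Acadm the mean ± SD of each gene overlapped that of the next, so the order there is not resolved. Acsl1 was the highest of the 10 in myeloid cells and lay below Etfb, Etfa and Hadha in leukaemia.

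Genes around the set were taken from 9 lists of 123 genes, of which 91 had an entry and 77 were tested. Of these, 31 were higher and 46 lower in leukaemia (limma, adjusted p under 0.05), against 49.1% and 50.7% of all genes tested, with a median log2 difference of -0.32 beside -0.16 for all genes. Scaled to the table total, 39 were higher and 25 lower, against 57.2% and 27.6% of all genes. The other 14 genes with an entry lay below the level filter and were not tested; by their means 8 were higher and 6 lower in leukaemia.

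Of 6 further genes of the carnitine shuttle 4 were tested, and 3 were lower and 1 higher in leukaemia (median log2 difference -0.51), where 50.7% of all genes were lower. With scaling to the table total, 2 were lower and 2 higher (median -0.06), where 27.6% and 57.2% of all genes were. Slc25a20, the carrier that brings acylcarnitine across the inner membrane, was 2.07-fold lower (541 ± 45.6 against 1120 ± 148 normalised reads, SD, n = 5 each). Crat, the acetyltransferase for short chains, was 1.90-fold lower, and Crot, its peroxisomal counterpart for medium chains, was 1.39-fold lower but passed as higher when scaled to the table total (log2 fold 0.17). By contrast Slc22a5, the plasma membrane carnitine importer, was 2.13-fold higher (528 ± 44.3 against 248 ± 52.0).

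Among other synthetase and uptake genes, 3 of 7 tested were higher and 4 lower (median -0.33), near the 49.1% and 50.7% of all genes. The 3 genes of the list below the level filter, Cd36, Fabp4 and Slc27a2, all had lower means in leukaemia, with overlapping groups. They are named after their values were seen. Cd36 ranged from 2.545 to 54.66 normalised reads in leukaemia and from 33.1 to 1111 in myeloid libraries. When scaled by table total, 4 were higher and 3 lower, where 57.2% and 27.6% of all genes were. Acbd3, an acyl-CoA binding domain gene, turned from -0.33 to 0.23. Slc27a4, a fatty acid transport protein with synthetase activity, was 11.2-fold lower in leukaemia, with 914 ± 112 normalised reads against 10270 ± 2840. As for Acsl1, myeloid replicates 2 and 4 were its highest libraries (13575 and 13131, against 7665 to 8714 in the other 3). The acetyl-CoA synthetase gene Acss2 (3.62-fold) and Acsl4 (1.90-fold), which prefers arachidonic acid, were also lower. Acsl3 (2.38-fold), Slc27a1 (2.80-fold) and Dbi, the acyl-CoA binding protein gene (1.94-fold), were higher.

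Other genes of the mitochondrial spiral were higher in 14 and lower in 6 of 20 tested (median 0.57), where 49.1% of all genes were higher. With scaling to the table total, 16 were higher and 4 lower (median 1.599, beside 0.43 for all genes), where 57.2% of all genes were higher. The list also holds dehydrogenases of branched-chain amino acid breakdown and enzymes of propionyl-CoA, so it is wider than straight-chain oxidation. Acads, the dehydrogenase for short chains, had 1813, 2144, 1950, 2207 and 1905 normalised reads in leukaemia and 786, 687, 596, 512 and 531 in myeloid libraries. It was 3.22-fold higher without overlap, whereas Acadm, Acadl and Acadvl for longer chains were lower with the authors' size factors (the difference between these genes was not tested). Acad9, needed for assembly of respiratory complex I, was 2.91-fold higher and Pccb, a subunit of propionyl-CoA carboxylase, 3.46-fold higher. Acadsb, a dehydrogenase of short branched chains, was 2.09-fold lower, Acad11 2.91-fold lower and Acad12 3.72-fold lower. Acaa2, the matrix thiolase, passed as higher by 1.21-fold with overlapping groups (limma adjusted p = 0.0219). Etfdh, named here after its values were seen because it takes the electrons of the electron transfer flavoprotein, was lower (962 ± 35.1 against 1202 ± 74.4 normalised reads, log2 difference -0.22), opposite to Etfa and Etfb, but passed as higher when scaled to the table total (log2 fold 0.32), still below the median of 0.43 for all genes.

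In the peroxisomal list 9 of 12 tested genes were lower in leukaemia and 3 higher (median -0.43), where 50.7% of all genes were lower. The 4 genes of the list below the level filter all had higher means in leukaemia, among them Ehhadh, the peroxisomal bifunctional enzyme gene (149 ± 14.7 against 15.7 ± 9.57 normalised reads), and Pecr (270 ± 32.2 against 40.8 ± 9.45), both without overlap and both named after their values were seen. Abcd2, which imports very long chain acyl-CoA into peroxisomes, was 4.34-fold lower (1794 ± 260 against 7792 ± 472 normalised reads). Acox3, an acyl-CoA oxidase, was 3.02-fold lower and Scp2, a lipid carrier and thiolase gene, 1.97-fold lower. Catalase (Cat, 1.72-fold), Abcd3 (1.47-fold) and Decr2 (2.29-fold) were higher. Scaled to the table total, 5 were higher and 3 lower, where 57.2% and 27.6% of all genes were. Abcd2, Acox3 and Scp2 were the 3 lower ones.

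Control genes of the entry step went both ways. Acaca, whose product makes the malonyl-CoA that inhibits Cpt1a, was 2.42-fold higher (2586 ± 73.4 against 1068 ± 202.5 normalised reads). Acacb, the other acetyl-CoA carboxylase gene, named after its values were seen, lay below the level filter and was not tested, with 71.6 to 122 normalised reads in leukaemia and 0 to 15.9 in myeloid libraries. Mlycd, which removes malonyl-CoA, was 1.23-fold lower with overlapping groups (limma adjusted p = 0.0414), and passed as higher when scaled to the table total (log2 fold 0.35). All 5 tested subunits of AMPK, the kinase that inhibits acetyl-CoA carboxylase, were lower, where 50.7% of all genes were lower. Among them were Prkab1 (3.11-fold), Prkaa1 (2.40-fold) and Prkag1 (1.92-fold), and these 3 stayed lower under both other scalings. Scaled to the table total, Prkab2 (-0.30) and Prkag2 (-0.02) did not pass. Fasn, which uses malonyl-CoA, was 6.44-fold higher. The synthesis list had 7 of 10 higher and 3 lower, where 49.1% of all genes were higher. Fads1 (3.91-fold) and Scd2 (3.10-fold) were also higher, and Elovl1 (1.895-fold) and Oxsm (1.275-fold) lower. Elovl5 (1.19-fold higher) and Elovl6 (1.55-fold lower) overlapped between the groups. Scaled to the table total, 8 were higher and 1 lower, where 57.2% and 27.6% of all genes were. Oxsm (0.295) then passed as higher and Elovl6 (-0.04) did not pass.

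The PPAR list holds regulators of oxidation genes and some of their targets. All 5 of its genes tested, the nuclear receptor genes Ppard, Rxra and Esrra, the corepressor gene Nrip1 and the mitochondrial carrier gene Ucp2, were lower in leukaemia (median -0.53), where 50.7% of all genes were lower, and 7 of the 14 had no entry. The other 2 lay below the level filter and are named after their values were seen. Pparg had 8.49 to 30.2 normalised reads in leukaemia and 584, 0, 355, 34.1 and 359 in the myeloid replicates, so the groups overlapped. Myeloid replicates 2 and 4, low for Pparg, also had the lowest sums of dendritic (5715 and 5807) and macrophage markers (16048 and 18531, against 25157 to 33218 in the other 3), whose part was not tested. Angptl4, a target gene, had 309 to 383 normalised reads in leukaemia and 5.04 to 39.0 in myeloid libraries. Esrra, an orphan nuclear receptor of mitochondrial genes, was 1.66-fold lower, the corepressor gene Nrip1 3.22-fold lower and Ucp2 1.45-fold lower. Scaled to the table total, Nrip1 alone of the 5 passed as lower, where 27.6% of all genes did. Ppard (0.15), Ucp2 (0.10) and Rxra (0.22) had log2 folds above 0 without passing. After quantile normalization Ucp2 (0.08) was above 0 without passing and the other 4 passed as lower, where 41.0% of all genes did. Rxra overlapped between the groups. The 9 lipid droplet genes tested were all lower (median -1.31), where 50.7% of all genes were lower. Of the 3 below the level filter, Plin4 and Plin5 had lower means, and Hilpda, an inhibitor of lipolysis, a higher one (123 ± 12.5 against 41.0 ± 31.1 normalised reads, without overlap); these are named after their values were seen. Dgat1 (11.3-fold) and Dgat2 (6.08-fold), which make triglyceride, and G0s2, an inhibitor of triglyceride lipolysis (10.8-fold), had the largest differences of deposited values, while Mgll, the monoglyceride lipase gene, had a larger fold (7.57) than Dgat2. By the table total, 7 of the 9 passed as lower and 0 as higher, where 27.6% and 57.2% of all genes did. Plin2 (0.08) and Pnpla2 (0.06) had log2 folds above 0 without passing. Dgat1 was also highest in myeloid replicates 2 and 4 (15141 and 14418, against 8621 to 9565). Of 8 thioesterase genes 3 had an entry, and all 3 were tested. Acot7 (1.91-fold) and Acot13 (1.44-fold) were higher and Acot9 (1.77-fold) lower, where 49.1% and 50.7% of all genes were. After quantile normalization Acot13 (0.04) did not pass.

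**Figure D4:**
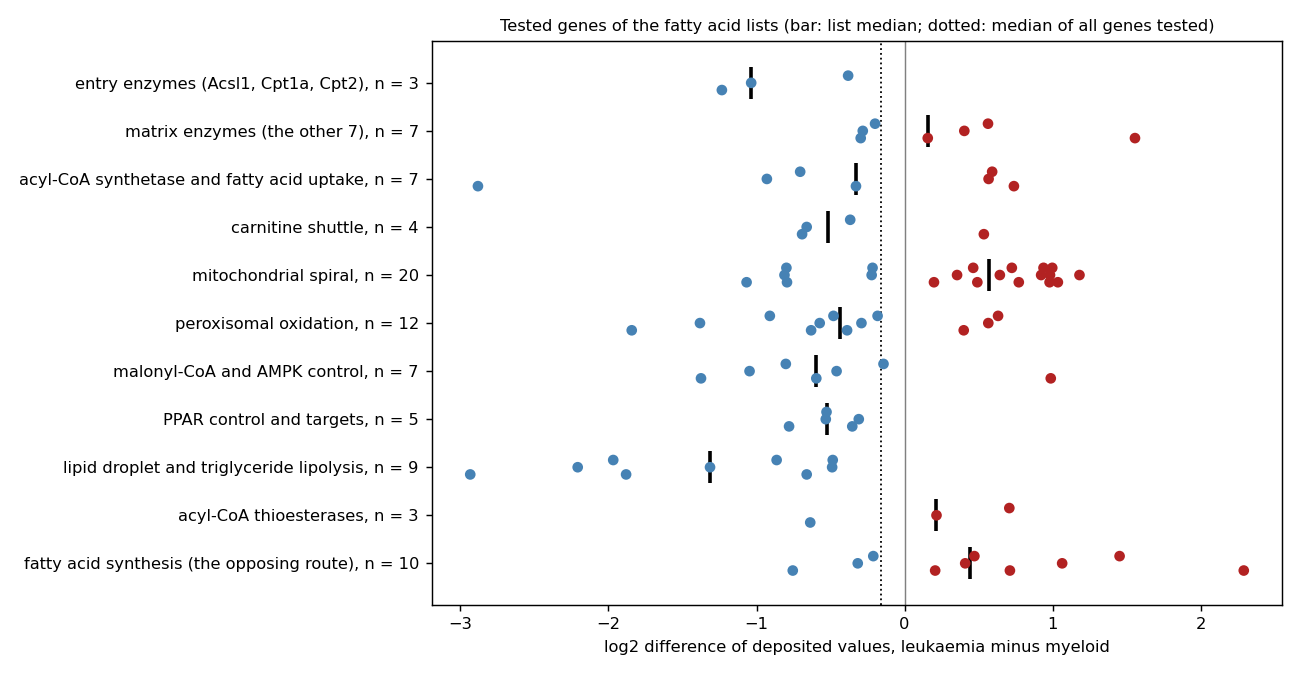
Log2 differences (horizontal axis, leukaemia minus myeloid, deposited values) of the tested genes in the entry and matrix sets and the 9 surrounding lists, with 1 point per gene (red higher, blue lower), a black bar at each list's median and a dotted line at the median of all genes tested. All 3 entry genes and all 9 lipid droplet genes lie below 0, and 14 of the 20 mitochondrial spiral genes lie above 0.

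The genes most like Acsl1, Cpt1a and Etfb over the 10 libraries were found by Pearson correlation of deposited values across all tested genes. This measure mainly follows the difference between the groups, and it is given as a description. For Acsl1 they were Rell1 (r = 0.998), Mkl1 (0.998) and Peli2 (0.998), and 2057 genes had r over 0.95. For Cpt1a they were Arl6ip5 (0.988), Camk1d (0.984) and Gm21188 (0.983), and 105 genes had r over 0.95. For Etfb they were Spout1 (0.998), Samm50 (0.997) and Rpsa (0.997), and 1674 genes had r over 0.95. Fewer genes tracked Cpt1a, whose libraries differed within the groups. Rpsa has many near-identical copies in the genome and its value is uncertain.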

How the data were processed

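RNA sequencing was compared between 5 libraries of GFP+ leukaemia cells and 5 of GFP-negative CD11b+ myeloid cells. The authors deposited 1 table of variance-stabilised values, whose unit is log2. The submitters' processing notes name HISAT2 (2.0.4 and 2.2.1) and DESeq2. Genome build, annotation, read counter and strand setting are not given in the sources used here. Groups were taken from sample titles, because the cell type field reads the same for all libraries. The lowest value, 8.1823, was taken as 0 reads. Inverting the variance-stabilising function then gave normalised reads, and whole reads for 100.0% of values up to 300 reads (tolerance 0.1 read). The form of the function is an assumption.

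Leukaemia minus myeloid was fitted with limma 3.58.1 (R 4.3.3) on the deposited values, with a trended prior, two-sided p-values and a Benjamini-Hochberg threshold of 0.05. The fit was also run on simulated data in which most genes did not change. These data are unlike that setting, so the run does not bear on the share of genes called here. Genes were kept where the mean lay over 1 log2 unit above the lowest value, about 145 normalised reads. All 10 enzyme genes passed this filter. Folds are ratios of mean normalised reads, and log2 differences of variance-stabilised values understate the change of low genes. The adjusted p-values describe a table already selected for a difference.

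Named genes were the 10 enzymes, and of each surrounding list at most the 3 highest and 3 lowest genes that passed plus any whose groups overlapped. For Acsl1, Cpt1a and Etfb the 3 most correlated genes were added. Members and lists were chosen with earlier results of these data known. Alternatives were no filter and a stricter one, quantile normalization, voom on recovered reads with either scaling, no trended prior, a replicate block, a stricter adjustment, and leaving out libraries. Reads counted without molecular identifiers are not independent molecules.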

Additional observations from a re-analysis of the deposited data

Results flagged for a closer look

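Among 110 groups of 5 libraries (the 10 enzymes and the 45 surrounding genes named by rule, in each cell population), 6 held a library set apart from the other 4 by more than 0.71 of the group's range of deposited values. Chance gives such a result in about 1 in 20 groups, about as many as were found. In the myeloid group, replicate 1 was high for Cpt1a at 6220 normalised reads (others 4040 to 4340), replicate 2 was high for Etfb at 1910 (others 1150 to 1310), replicate 1 was low for Acadsb at 1870 (others 2520 to 2660), and replicate 2 was low for Nrip1 at 332 (others 577 to 697). In the leukaemia group, replicate 2 was high for Mlycd at 392 (others 315 to 335) and replicate 1 was low for Scd2 at 6390 (others 8420 to 9100).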

How the results depend on the processing

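Acsl1, Cpt1a, Hadhb, Etfa and Etfb kept their direction and their call under all 19 alternatives, with log2 differences from -1.34 to -0.67, -1.23 to -0.59, 0.38 to 1.198, 0.53 to 1.37 and 1.52 to 2.52. Scaling to the total of the table gave 7 enzyme genes higher and 2 lower in place of 4 and 6, and turned Cpt2 (0.018), Acadvl (0.25), Acadl (0.39) and Acadm (0.25) above 0. It also gave 25 surrounding genes lower in place of 46 and 2232 of all genes lower in place of 4097. Quantile normalization turned Acadl (0.052). On recovered reads with the authors' size factors Etfb was 1.89 and Hadhb 0.556, beside 1.557 and 0.404 on deposited values with the same factors. A stricter filter left fewer genes to test, with 17 surrounding genes and 2415 of all genes higher. The entry minus matrix difference was -1.40 with voom on recovered reads under either scaling, against -1.16 on deposited values, so the choice of scaling did not change it. With the authors' size factors the entry mean was -1.065 on recovered reads and -0.884 on deposited values. The matrix mean was 0.332 and 0.272. Counting each annotated gene as a test left 8 of the 10 enzymes past the threshold. With a replicate block all 10 enzymes passed, and 8018 of all genes. The labels give both groups the same replicate numbers but do not say that a number is 1 mouse. Deviations of same-numbered libraries from their group means correlated at 0.13, 0.232, 0.316, 0.29 and -0.022. Differently numbered libraries were not compared, so these values do not decide whether the libraries are paired. The main fit took them as unpaired. With the block the limma adjusted p fell for Cpt1a (8.18e-06 to 2.11e-07) and rose for Acsl1 (4.8e-08 to 3.26e-07). Without myeloid replicates 2 and 4, Acadl alone of the 10 lost its call.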
